A study of Carica papaya with 12 samples.

Results

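The comparison of sex by bud size rests on 8 of the 12 libraries of papaya (Carica papaya) flower buds. They are the libraries of 'AU9', a breeding material, and hold 2 replicates each of male buds of 7–12 mm, female buds of 7–12 mm, male buds of 1–6 mm and female buds of 1–6 mm. The labels call the larger buds post-meiosis and the smaller ones pre-meiosis. The labels name no treatment. The question was whether the difference between the sexes changed as the buds grew, gene by gene. For each gene the interaction was the male minus female difference at 7–12 mm minus the male minus female difference at 1–6 mm, on the log2 scale of CPM (counts per 1000000 counts of a library). The fit held the replicate number as a block. The remaining 4 libraries, hermaphrodite 'SunUp' buds of 7–12 mm and of 1–6 mm, took no part in the interaction and are given beside it, and in them the sex type and the cultivar cannot be told apart.

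Papaya has male, female and hermaphrodite plants, and the sex type is set by a pair of sex chromosomes. A male bud carries stamens around a rudimentary pistil, a female bud carries a pistil and no stamens, and a hermaphrodite bud carries both. Inside the anther, sporogenous cells go through meiosis while the tapetum, the layer that feeds the pollen, differentiates and later breaks down. Genes of the tapetum are therefore read in male and hermaphrodite buds, and the growing ovary is the main reproductive organ of a female bud. A bud is a mixture of organs, and fewer cells of a type and less RNA per cell cannot be told apart in these libraries.

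The totals ran between 12704714 and 16564137 counts in the 4 AU9 libraries of replicate 1 and between 6593411 and 8554135 counts in the 4 of replicate 2. Hermaphrodite 1–6 mm replicate 2 had the lowest total of the 12 libraries, 4520811 counts. The study also reports its largest share of unaligned reads for that library. Of 27689 gene models, 19131 passed the filter on low counts. The stamen markers matched the labelled sexes: TDF1, an early tapetum regulator, had 3240 and 2184 counts in male buds of 7–12 mm, 0 and 4 in female buds of 7–12 mm, 8937 and 2796 in male buds of 1–6 mm, and 0 and 8 in female buds of 1–6 mm. CRABS CLAW, a carpel gene, was read in all AU9 groups, with 41.4 and 38.1 CPM in male against 69.9 and 49.4 CPM in female buds of 7–12 mm. The study's methods call the 2 libraries of a group biological replicates. Neither the methods nor the labels say whether these came from separate plants. The p-values therefore measure only the spread left between these libraries after the block takes out the shift of each replicate number. That spread may be partly technical.

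The difference between the sexes changed with bud size in 1370 genes, 7.16% of those tested (edgeR quasi-likelihood test, Benjamini-Hochberg adjusted p under 0.05 over all genes tested, and more than 1 on the log2 scale). It moved towards males in 649 genes (3.39% of those tested) and towards females in 721 (3.77%). Most of these genes diverged: in 942 (68.8% of the calls) the sexes lay further apart at 7–12 mm than at 1–6 mm, with 419 higher in males and 523 higher in females at the larger size. Another 389 (28.4%) converged, which means that the sexes lay closer together at 7–12 mm, 179 of them higher in males and 210 higher in females at 1–6 mm. Both classes follow the fitted sex differences, whether these were called or not. The remaining 39 (2.85%) crossed, which means that the sex difference passed the same thresholds at both sizes with opposite signs. In 1365 of the 1370 genes (99.6%) the interaction had the same sign in replicate 1 alone and in replicate 2 alone, beside 69.3% of all tested genes, but the genes were called on these same replicates. The counts depended on single libraries. Leaving out male 1–6 mm replicate 1 gave 783 genes in all, 588 diverging and 168 converging. Leaving out male 1–6 mm replicate 2 gave 886 in all and 595 diverging. Leaving out female 1–6 mm replicate 1 gave 706 in all, 514 diverging, 171 converging and 21 crossing, and leaving out female 7–12 mm replicate 2 gave 642 converging and 72 crossing.

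**Figure D1:**
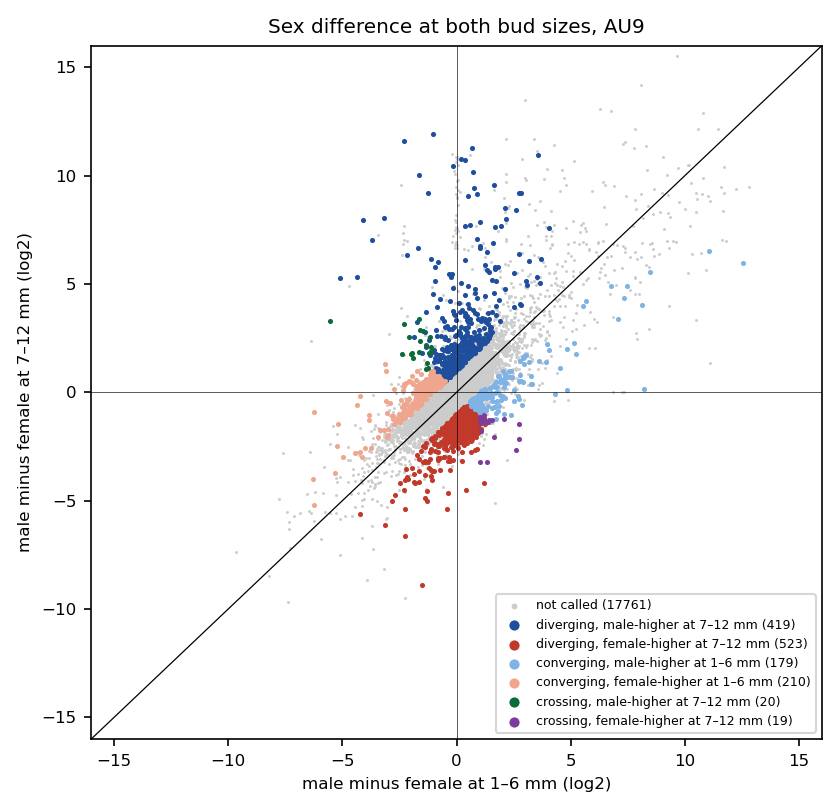
Each point is 1 of 19131 genes, with its male minus female log2 difference at 1–6 mm (x axis) and at 7–12 mm (y axis), and the diagonal marks an equal difference at both sizes. Diverging genes (419 and 523) lie along the y axis away from 0, converging genes (179 and 210) along the x axis, and the 39 crossing genes towards the upper left and lower right.

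The sex difference by itself was called in 3456 genes at 7–12 mm (18.1% of those tested), 9.79% higher and 8.28% lower in males, and in 2712 genes at 1–6 mm (14.2%), 6.59% higher and 7.59% lower in males. Of the 1370 genes with an interaction, 700 had a called sex difference at 7–12 mm only, 234 at 1–6 mm only, 204 at both sizes and 232 at neither. Of those 232, 136 were classed as diverging and 96 as converging. The fitted sex difference changed sign between the sizes in 768 of the 1370 genes, but in all except the 39 crossing genes at least one of the 2 differences stayed short of the thresholds.

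More genes changed with bud size in males than in females. Between 7–12 and 1–6 mm, 1330 genes changed in males (6.95% of those tested), 687 upwards (3.59%) and 643 downwards (3.36%). In females 542 genes changed (2.83%), 191 upwards (0.998%) and 351 downwards (1.83%). The count in males was 870 without male 1–6 mm replicate 1. For females the count rested on single libraries. It was 287 when female 7–12 mm replicate 1 was left out, 1162 when female 7–12 mm replicate 2 was left out, and 121 when female 1–6 mm replicate 1 was left out. The difference between the counts of the sexes was not tested as such.

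Within the genes called for the interaction, 678 had a called size change in males only, 178 in females only and 41 in both sexes, 34 of those in opposite directions. The male change was the larger of both in 955 of the 1370 genes (69.7%), against 53% of all tested genes. The classes differed in this. Among diverging genes higher in males at 7–12 mm, 274 of 419 rose with size in males and 46 fell in females, with median size changes of 1.35 in males and -0.41 in females on the log2 scale. Among diverging genes higher in females at 7–12 mm, 301 of 523 fell in males and 36 rose in females, with medians of -1.13 in males and 0.54 in females. Converging genes that were higher in females at 1–6 mm went the other way. In that class 28 of 210 rose in males and 88 fell in females, and the male change was the larger in 25.7% only. Converging genes higher in males at 1–6 mm fell in males in 78 of 179 cases and rose in females in 34. Since the classes were cut from the same differences, these shares describe them and were not tested.

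The classes also differed in how much of each library they made up, which was not tested. They were cut from the sex differences of these same libraries, so the order of the sexes in the shares largely follows from that. The 419 diverging genes higher in males held 7.72% to 7.81% of the counts in male buds of 7–12 mm, against 2.05% to 2.15% in female buds of 7–12 mm, 2.68% to 2.91% in male buds of 1–6 mm and 2.19% to 2.21% in female buds of 1–6 mm. The 523 diverging genes higher in females held 0.947% to 0.949% in male buds of 7–12 mm, against 2.81% to 3.40% in female buds of 7–12 mm, 2.03% to 2.04% in male buds of 1–6 mm and 1.92% to 2.14% in female buds of 1–6 mm. At 1–6 mm the shares of the sexes overlapped for the genes higher in females and did not overlap for those higher in males. Converging genes higher in females at 1–6 mm held 1.33% to 1.40% in male buds and 1.99% to 2.21% in female buds of 7–12 mm, and 1.02% to 1.03% in male buds and 3.20% to 3.56% in female buds of 1–6 mm. The median level over the 8 libraries was 16.0 CPM for diverging genes higher in males, 16.9 CPM for diverging genes higher in females and 35.0 CPM for converging genes higher in females at 1–6 mm, beside 22.0 CPM over all tested genes. Their median counted lengths were 999, 1200 and 892.5 bases, beside 938 bases over all tested genes.

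The hermaphrodite libraries offer a view that the interaction did not use. In them 850 of 19339 genes changed with bud size (4.4%), 559 upwards (2.89%) and 291 downwards (1.5%), and 264 without hermaphrodite 1–6 mm replicate 1. Of the 419 diverging genes higher in males at 7–12 mm, 117 (27.9%) rose and 6 (1.43%) fell with size in hermaphrodites, with a median change of 0.60. Of the 523 diverging genes higher in females, 2 (0.382%) rose and 77 (14.7%) fell, with a median of -0.56. Over all genes tested in AU9 the shares were 2.8% upwards and 1.46% downwards. In both classes the hermaphrodite median had the sign of the male median and a smaller size. Among the 179 converging genes higher in males at 1–6 mm 13 (7.26%) rose and 13 (7.26%) fell, and among the 210 higher in females 8 (3.81%) rose and 16 (7.62%) fell. Of the 20 crossing genes higher in males at 7–12 mm 8 (40%) rose, and of the 19 higher in females 2 (10.5%) rose and 3 (15.8%) fell. The classes were not compared by a test.

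**Figure D2:**
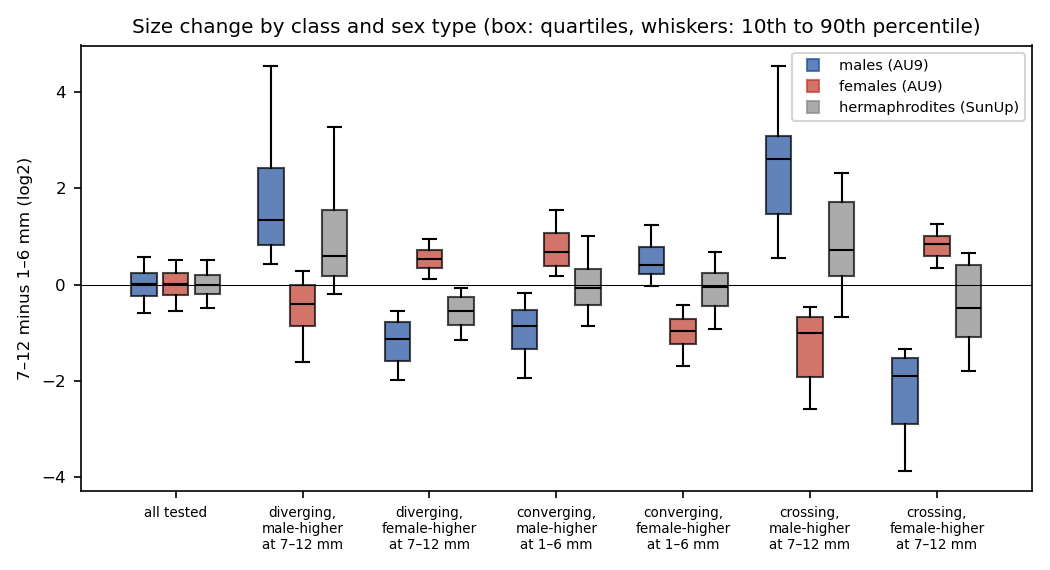
The log2 change between 7–12 and 1–6 mm buds is drawn for each class of genes in males, females and hermaphrodites, as boxes of the quartiles with whiskers to the 10th and 90th percentiles over genes. The male medians of 1.35 and -1.13 in the diverging classes stand beyond the female medians of -0.41 and 0.54, and the hermaphrodite medians of 0.60 and -0.56 lie on the male side of 0.

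Named genes come from 8 lists of 83 genes that the study's own tables name. The study picked them for differences between sex types in these same libraries, so their share of calls is not independent evidence of any direction. All 83 were tested: 6 moved towards males, 16 towards females and 61 were not called, which is 26.5% called beside 7.16% of all genes. The median interaction over the 83 genes was -0.17, beside 0.01 over all tested genes.

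**Figure D3:**
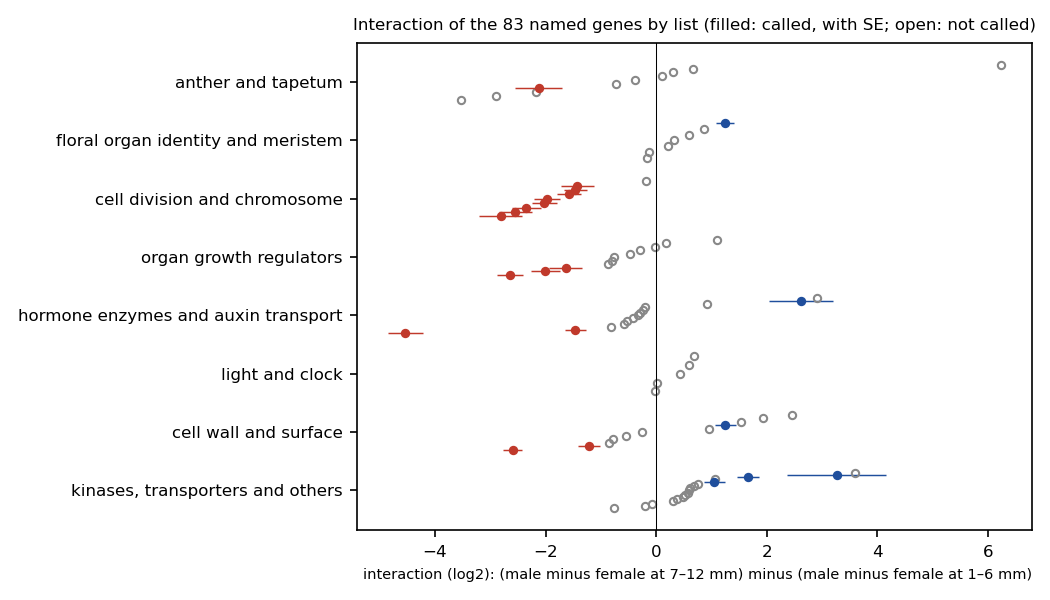
The interaction of each of the 83 named genes is plotted on the log2 scale by list, filled with its standard error where called and open where not. The 9 cell division genes all lie below 0 with 8 called, and the 6 genes called above 0 belong to the floral identity, hormone, cell wall and kinase and transporter lists.

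Most genes of the cell division and chromosome list diverged, being lower in males than in females at 7–12 mm. The study lists NACK1, KIFC1, TOP2, Cyclin-D3-1, both histone H3 genes and Shugoshin-1-like for differences at 7–12 mm and not at 1–6 mm. The pattern of this list was thus largely set by how its genes were picked, and its shares only describe it. Of the 9 genes on this list 8 were called towards females (88.9%, beside 7.16% of all tested genes called), with a median interaction of -1.97. At 7–12 mm 7 of the 9 were called lower in males than in females, beside 8.28% of all tested genes. At 1–6 mm none was called by edgeR, DESeq2 or either limma fit, with 4 under an unadjusted p of 0.05. By edgeR 14.2% of all tested genes were called there. Every fitted difference of the list at 1–6 mm was towards males, 0.07 to 0.93. Shugoshin-1-like (0.93, edgeR adjusted p = 0.0187) missed only the fold limit. With size, 5 fell in males (3.36% of all tested genes), 1 rose in females (0.998%) and 1, TOP2, fell in hermaphrodites (1.5%). These counts hang on the fold limit: in hermaphrodites Cyclin-D3-1 (-0.94), Histone H3 isoform 1 (-0.88), Histone H3 isoform 2 (-0.77) and KIFC1 (-0.76) had edgeR adjusted p of 0.0021, 0.00128, 0.00405 and 0.00947 under it, and in females KIFC1 (0.82) and Histone H3 isoform 1 (0.72) had 0.0229 and 0.015.

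KIFC1, a kinesin motor of the spindle (evm.model.supercontig_81.9, scaffold scf7180000007921, 82273 to 87942 of the PacBio assembly), had 21.8 and 15.7 CPM in male buds and 84.5 and 62.1 CPM in female buds of 7–12 mm. At 1–6 mm it had 54.2 and 54.8 CPM in male buds and 37.5 and 45.4 CPM in female buds. The sexes were far apart at the larger size and close at the smaller, with no overlap at either, and the interaction was -2.35 ± 0.26 (SE, n = 2 libraries per group, edgeR adjusted p = 0.00105).

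TOP2, the topoisomerase that untangles replicated chromosomes, had 19.8 and 19.7 CPM in male and 92.1 and 63.1 CPM in female buds of 7–12 mm, and 69.2 and 71.0 CPM in male and 40.4 and 54.4 CPM in female buds of 1–6 mm. Males were lower at 7–12 mm and had the higher values at 1–6 mm, where the difference of 0.57 on the log2 scale was not called. The interaction was -2.55 ± 0.30 (edgeR adjusted p = 0.00228), and in hermaphrodites TOP2 had 40.4 and 30.4 CPM at 7–12 mm against 72.2 and 73.2 CPM at 1–6 mm, a change of -1.02 (edgeR adjusted p = 0.00954).

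NACK1, a kinesin needed for the cell plate in tobacco, had 13.0 and 9.79 CPM in male and 43.8 and 33.2 CPM in female buds of 7–12 mm, against 34.8 and 31.6 CPM in male and 26.4 and 30.4 CPM in female buds of 1–6 mm. Cyclin-D3-1, which drives entry into the cell cycle, had 9.76 and 10.2 CPM in male and 37.0 and 26.6 CPM in female buds of 7–12 mm, against 34.2 and 34.9 CPM in male and 30.8 and 23.8 CPM in female buds of 1–6 mm. For both genes the male libraries of 7–12 mm were the lowest 2 of the 8 and the other 3 groups lay close together. Their interactions were -1.97 ± 0.23 for NACK1 and -2.02 ± 0.23 for Cyclin-D3-1 (edgeR adjusted p = 0.000869 and 0.000725).

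Shugoshin-1-like, named after the protector of centromeric cohesion, was read at lower levels, 3.20 and 2.82 CPM in male and 14.6 and 7.27 CPM in female buds of 7–12 mm, against 12.3 and 12.6 CPM in male and 6.81 and 6.16 CPM in female buds of 1–6 mm. Its order of the sexes was opposite at the 2 sizes in these libraries, but the difference at 1–6 mm, 0.93 on the log2 scale, was not called, and the gene counts as diverging. The interaction was -2.81 ± 0.39 (edgeR adjusted p = 0.00185). NCAPD3, a subunit of condensin II, had an interaction of -1.43 ± 0.30 (edgeR adjusted p = 0.0131), with no called sex difference at either size. At 7–12 mm the sex difference of NCAPD3, -0.90 (edgeR adjusted p = 0.00756), missed only the fold limit. Its call was lost without male 1–6 mm replicate 2 or female 1–6 mm replicate 1, and the adjusted p over all alternatives ran between 0.0029 and 0.0966.

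Of the histone H3 genes, isoform 2 was the gene of this list with a called size change in females. Histone H3 isoform 2 had 35.0 and 38.1 CPM in male and 119.0 and 88.9 CPM in female buds of 7–12 mm, against 57.4 and 50.4 CPM in male and 47.8 and 55.5 CPM in female buds of 1–6 mm. It rose with size in females by 1.01 on the log2 scale (edgeR adjusted p = 0.0042), just beyond the fold limit. Its change in males, -0.57 (edgeR adjusted p = 0.0354), was under that limit and not called. The interactions of isoforms 1 and 2 were -1.47 ± 0.21 and -1.58 ± 0.22 (edgeR adjusted p = 0.00243 and 0.002). These 2 gene models lie side by side on scaffold scf7180000007911 (672577 to 672987 and 674428 to 674838), and reads of near-identical H3 copies could have been split between them or left out, so the values are uncertain. RAD50, a DNA repair protein, was the gene of the list that was not called, with an interaction of -0.18 (edgeR adjusted p = 0.585).

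The organ growth regulators held 3 calls among 11 genes (27.3%, beside 7.16% of all tested genes), all towards females, with a median interaction of -0.76. At 7–12 mm 8 of the 11 were called lower in males and 1 higher, beside 8.28% and 9.79% of all tested genes. At 1–6 mm 5 were called lower, beside 7.59%. With size 4 fell in males, beside 3.36%. None was called for a change in females by edgeR, DESeq2 or either limma fit, with 5 under an unadjusted p of 0.05. ANT on supercontig_160 (0.66), AIL5 (-0.56) and PAT1 (-0.40) missed only the fold limit in females. Their edgeR adjusted p were 0.0283, 0.0101 and 0.0452.

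AINTEGUMENTA (ANT) is known from Arabidopsis as a transcription factor that keeps cells of young organs dividing. The gene model on supercontig_160 (scaffold scf7180000007659, 177561 to 180787) had 13.7 and 10.1 CPM in male and 81.0 and 61.7 CPM in female buds of 7–12 mm, against 47.5 and 47.9 CPM in male and 41.5 and 48.6 CPM in female buds of 1–6 mm. The sexes overlapped at 1–6 mm and were separate at 7–12 mm, with an interaction of -2.65 ± 0.24 (edgeR adjusted p = 0.000268). The model on supercontig_129, which is placed on more than one scaffold, had 9.76 and 5.19 CPM in male and 48.5 and 37.2 CPM in female buds of 7–12 mm, against 20.1 and 22.2 CPM in male and 37.8 and 36.8 CPM in female buds of 1–6 mm. Here the males were already the lower at 1–6 mm, by 0.83 on the log2 scale and not called, and the interaction was -1.64 ± 0.29 (edgeR adjusted p = 0.00807). This call was lost without female 1–6 mm replicate 1, and the adjusted p over all alternatives ran between 0.000274 and 0.0576.

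WOX4, a homeobox gene of the vascular stem cells in Arabidopsis, had 6.48 and 8.61 CPM in male and 38.5 and 27.0 CPM in female buds of 7–12 mm, against 28.3 and 27.0 CPM in male and 32.8 and 28.8 CPM in female buds of 1–6 mm. Only the male libraries of 7–12 mm stood apart, and the interaction was -2.00 ± 0.27 (edgeR adjusted p = 0.00157). Among the genes not called, AIL5, a relative of ANT, passed the p-value but not the limit of 1 on the log2 scale. Its interaction was -0.76 (edgeR adjusted p = 0.0119). AIL5 was called as falling with size in males and in hermaphrodites, and in females it changed by -0.56, under the fold limit. AIL1 (-0.87, adjusted p = 0.145) and MYB4-like (1.10, adjusted p = 0.168) were short of the edgeR threshold.

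**Figure D4:**
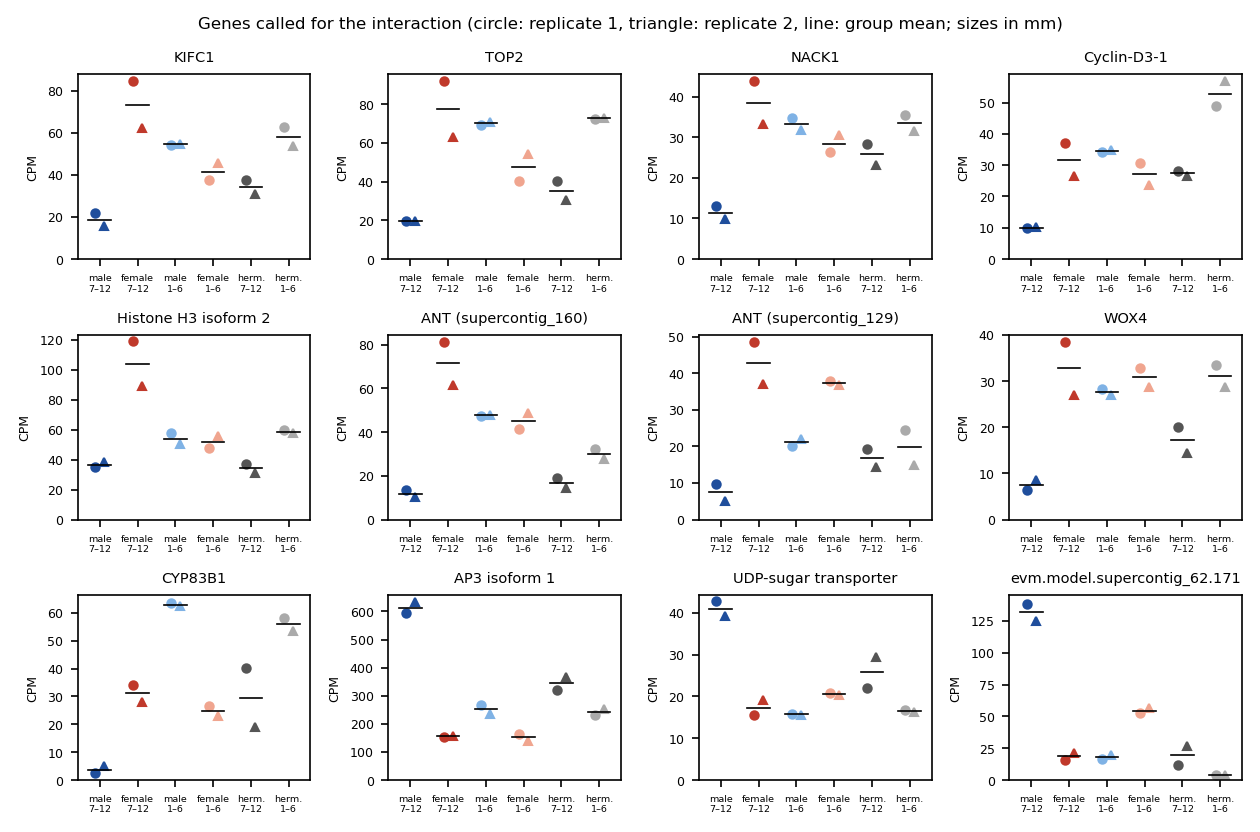
CPM of 12 genes called for the interaction is shown for every library by sex and bud size, with circles for replicate 1, triangles for replicate 2 and lines for the group means. In the first 8 panels the male libraries of 7–12 mm are the lowest of the AU9 libraries (KIFC1 at 21.8 and 15.7 CPM, for example), and in the panels of AP3 isoform 1, the UDP-sugar transporter and evm.model.supercontig_62.171 they are the highest.

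Among the 13 genes of hormone enzymes and auxin transport, 1 moved towards males and 2 towards females (23.1%, beside 7.16% of all tested genes). The median interaction was -0.32. CYP83B1, an enzyme of the branch point between indole glucosinolates and auxin in Arabidopsis, crossed. It had 2.50 and 4.90 CPM in male and 34.3 and 28.1 CPM in female buds of 7–12 mm, against 63.4 and 62.4 CPM in male and 26.5 and 22.9 CPM in female buds of 1–6 mm. Females stayed at about the same level while males held the highest values at 1–6 mm and the lowest at 7–12 mm. The sex difference was -3.19 ± 0.25 at 7–12 mm and 1.34 ± 0.19 at 1–6 mm, and the interaction was -4.54 ± 0.32 (edgeR adjusted p = 0.000163). In hermaphrodites CYP83B1 had 40.2 and 18.9 CPM at 7–12 mm against 58.1 and 53.7 CPM at 1–6 mm, a change that was not called (edgeR adjusted p = 0.0989).

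The VAN3-binding protein gene, of a family that acts in leaf vein patterning in Arabidopsis, was lower in males at both sizes and more so at 7–12 mm. It had 15.6 and 20.0 CPM in male and 107.5 and 105.1 CPM in female buds of 7–12 mm, against 29.7 and 31.1 CPM in male and 58.1 and 77.1 CPM in female buds of 1–6 mm, and an interaction of -1.46 ± 0.19 (edgeR adjusted p = 0.00131). ABA 8-hydroxylase 4, of the enzymes that break down abscisic acid, converged. It had 10.6 and 13.8 CPM in male and 5.82 and 13.6 CPM in female buds of 7–12 mm, which overlapped, and 2.28 and 2.54 CPM in male and 13.1 and 8.62 CPM in female buds of 1–6 mm, which did not. The interaction of 2.62 ± 0.58 (edgeR adjusted p = 0.0285) was lost without either male library of 7–12 mm, either male library of 1–6 mm, or female 1–6 mm replicate 1, and the adjusted p over all alternatives ran between 0.000278 and 0.147. CYP90A1, a brassinosteroid enzyme, had an interaction of -0.59 (edgeR adjusted p = 0.0372, under the fold limit). Cytokinin dehydrogenase 6 (2.92, adjusted p = 0.128) and ABA 8-hydroxylase 1 (0.92, adjusted p = 0.147) were not called by edgeR. ABA 8-hydroxylase 1 was called only without male 7–12 mm replicate 1, with an adjusted p between 0.0142 and 0.404 over all alternatives.

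In the floral organ identity and meristem list 1 of 7 genes was called (14.3%, beside 7.16% of all tested genes), towards males. The median interaction was 0.32. AP3 isoform 1, a B-class gene of petals and stamens (evm.model.supercontig_6.199, scaffold scf7180000009679, 30055 to 31724), had 593.8 and 633.9 CPM in male and 154.3 and 156.3 CPM in female buds of 7–12 mm, against 268.2 and 235.1 CPM in male and 163.7 and 139.4 CPM in female buds of 1–6 mm. The female level was about the same at both sizes and the male level was higher at 7–12 mm, with an interaction of 1.25 ± 0.16 (edgeR adjusted p = 0.0014). AP3 isoform 2, a nearby model on the same scaffold, followed with 0.87 (edgeR adjusted p = 0.00557), which is under the fold limit. PI, the partner of AP3, had an interaction of 0.60 (edgeR adjusted p = 0.0778) with values that differed between the replicates, 0.20 in replicate 1 and 1.03 in replicate 2. For CLV1, a receptor kinase of the shoot meristem, it was 0.32 (edgeR adjusted p = 0.492).

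The anther and tapetum genes had large sex differences and 1 call among 10 genes (10%, beside 7.16% of all tested genes), with a median interaction of -0.56. At 7–12 mm 6 were called higher and 2 lower in males, beside 9.79% and 8.28% of all tested genes. At 1–6 mm 6 were called higher and 1 lower, beside 6.59% and 7.59%. TPD1, the small secreted ligand that specifies the tapetum in Arabidopsis, was called towards females, with 1.87 and 2.37 CPM in male and 9.18 and 4.94 CPM in female buds of 7–12 mm, against 7.94 and 5.79 CPM in male and 5.80 and 5.17 CPM in female buds of 1–6 mm. Its interaction was -2.13 ± 0.42 (edgeR adjusted p = 0.0105), and the call was lost without male 7–12 mm replicate 1, male 1–6 mm replicate 1 or female 1–6 mm replicate 1, with an adjusted p between 0.00126 and 0.0879 over all alternatives. EMS1/EXS-like, which resembles the receptor of TPD1, passed the p-value under the fold limit (-0.72, edgeR adjusted p = 0.0389). TPD1 was thus read in all 4 female libraries, at 4.94 to 9.18 CPM.

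RPK2, a receptor kinase, was also read in females, with 69.5 and 53.0 CPM in male and 121.7 and 113.6 CPM in female buds of 7–12 mm, against 74.2 and 69.8 CPM in male and 161.9 and 135.5 CPM in female buds of 1–6 mm. It was lower in males at both sizes, without overlap, and its interaction was 0.10 (edgeR adjusted p = 0.733).

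SPL/NZZ, DYT, TDF1, both AMS models and CpMS1 had female counts near 0 at both sizes. Against a female count near 0 the ratio of the sexes, and with it the interaction, has almost no precision, so that these genes are described by their counts. AMS isoform 2, a model beside AMS isoform 1 that is named after a tapetum transcription factor, was counted 1174 and 548 times in male and 0 and 0 times in female buds of 7–12 mm, against 261 and 46 times in male and 0 and 2 times in female buds of 1–6 mm. In buds of 7–12 mm the male level was at least 643 times the female level (at the limit of 3 counts over the female group), and at 1–6 mm the ratio was 134 with a 95% counting interval between 36.8 and 1113. Its interaction of 6.24 was not called (edgeR adjusted p = 0.312), and among the alternatives it was called only by limma-trend, a limma fit on log2 CPM. AMS isoform 2 rose with size in males by 3.04 (edgeR adjusted p = 0.00296) and in hermaphrodites by 3.53 (edgeR adjusted p = 0.00333).

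AMS isoform 1 took the opposite course in males, with 230.8 and 257.9 CPM at 7–12 mm against 826.8 and 675.2 CPM at 1–6 mm, a change of -1.63 that was not called (edgeR adjusted p = 0.0721). SPL/NZZ, which starts the sporogenous cells, fell with size in males, with 2.34 and 3.26 CPM at 7–12 mm against 10.6 and 11.9 CPM at 1–6 mm (-2.03, edgeR adjusted p = 0.00132). It had 1 and 1 counts in female buds of 7–12 mm and 0 and 1 in female buds of 1–6 mm. Its interaction of -2.89 was not called (edgeR adjusted p = 0.246), and among the alternatives it was called only by limma-trend. CpMMD1 had an interaction of -3.54 (edgeR adjusted p = 0.214) on 1 to 3 counts in each female group. Intervals here and above cover counting error only, since PCR reads without molecular identifiers are not independent molecules.

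CpMS1, a PHD finger gene, is named after an Arabidopsis gene that acts late in the tapetum. It had 2737 and 1157 counts in male buds of 7–12 mm and 0 and 1 in female buds of 7–12 mm. In male buds of 1–6 mm it had 1027 and 43 counts, and in female buds of 1–6 mm 0 and 0. At 1–6 mm the male level was at least 311.7 times the female level (at the limit of 3 counts over the female group). The sex difference at that size was not called here (edgeR adjusted p = 0.109), while the study's own analysis called it higher in males. The 2 male libraries of 1–6 mm stood apart from each other, at 57.0 and 6.07 CPM. Glucan endo-1,3-beta-glucosidase-like, from the cell wall list, showed the same split with 70.1 and 11.4 CPM in male 1–6 mm replicates 1 and 2, beside 139.0 and 142.8 CPM in male buds of 7–12 mm, and so did GPAT1 with 119.2 and 28.9 CPM beside 115.7 and 91.4 CPM. In hermaphrodite buds CpMS1 had 174.5 and 183.8 CPM at 7–12 mm against 0.130 and 0 CPM at 1–6 mm.

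**Figure D5:**
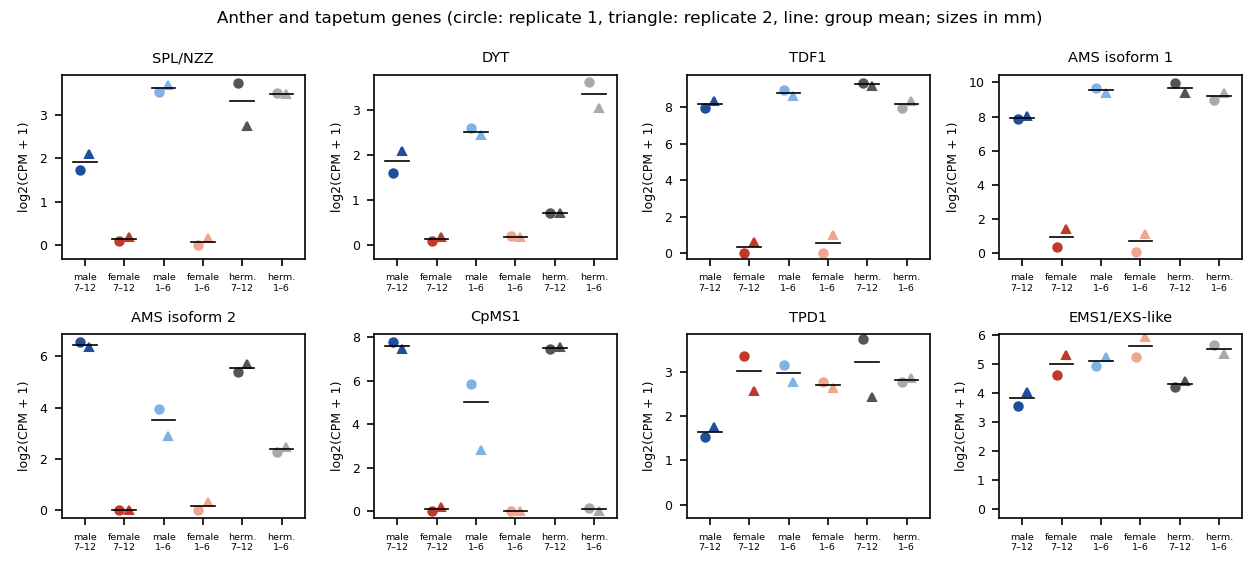
The level of 8 anther and tapetum genes is shown for every library as log2(CPM + 1), with circles for replicate 1, triangles for replicate 2 and lines at the group means. SPL/NZZ, DYT, TDF1, both AMS models and CpMS1 are near 0 in all 4 female libraries, the male 1–6 mm libraries lie apart for CpMS1 (57.0 and 6.07 CPM), and TPD1 and EMS1/EXS-like are read in females.

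Of all tested genes, 186 had at most 3 counts over the 4 female libraries. They passed the filter on low counts through the male libraries alone, so their counts of calls are a description and carry no weight as a result. In males 134 of them changed with bud size, 103 upwards and 31 downwards, beside 6.95% of all tested genes, and 5 of the 186 were called for the interaction, beside 7.16%. Being chosen for a rise in males and for low female counts, the 103 genes summed to 1734 and 1652 CPM in male buds of 7–12 mm, against 63.3 and 40.4 CPM in male buds of 1–6 mm, and to at most 3.84 CPM in any female library. In hermaphrodites they summed to 575.2 and 812.1 CPM at 7–12 mm against 23.4 and 32.8 CPM at 1–6 mm. With size 46 of the 103 rose there, beside 2.8% of all genes tested in AU9. The 31 genes that fell summed to 110.7 and 124.9 CPM in male buds of 7–12 mm against 566.1 and 451.4 CPM in male buds of 1–6 mm. In hermaphrodites 7 of those 31 rose and 7 fell, beside 2.8% and 1.46% of all genes tested in AU9. The opposite case was rare: 18 tested genes had at most 3 counts over the 4 male libraries. Of these, 3 changed with size in females, beside 2.83% of all tested genes. None of the 18 was called for the interaction by edgeR or DESeq2, beside 7.16% by edgeR. By limma-voom 1 was called, by limma-trend 2, and 1 under an unadjusted p of 0.05.

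Cell wall and surface genes had 3 calls among 11 (27.3%, beside 7.16% of all tested genes). Of these, 1 was towards males and 2 towards females, and the median interaction of the list was -0.26. 1,4-beta-D-xylan synthase, which makes the backbone of a wall polymer, had 20.0 and 16.3 CPM in male and 106.9 and 71.9 CPM in female buds of 7–12 mm, against 67.7 and 61.2 CPM in male and 56.1 and 48.1 CPM in female buds of 1–6 mm. It followed the pattern of the cell division genes, with an interaction of -2.60 ± 0.18 (edgeR adjusted p = 8.06e-05), the smallest adjusted p of the 83 genes. Expansin-like A2, of a family tied to wall loosening, converged, and here the females moved: it had 66.3 and 69.5 CPM in male and 44.7 and 54.2 CPM in female buds of 7–12 mm, against 76.2 and 89.5 CPM in male and 153.7 and 129.8 CPM in female buds of 1–6 mm. It fell with size in females by 1.53 on the log2 scale (edgeR adjusted p = 0.000757), and the interaction was 1.25 ± 0.19 (edgeR adjusted p = 0.00278).

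EP1-like/COMITIN also changed in females, with 38.0 and 28.5 CPM in male and 54.9 and 50.3 CPM in female buds of 7–12 mm, against 31.9 and 22.3 CPM in male and 19.4 and 17.7 CPM in female buds of 1–6 mm. Its interaction was -1.22 ± 0.19 (edgeR adjusted p = 0.00372), lost without male 1–6 mm replicate 1, with an adjusted p between 0.00047 and 0.0524 over all alternatives. The 3 uncalled genes of this list with the smallest adjusted p were DUF642 protein (-0.26), Callose synthase 10 (-0.85) and Beta-glucosidase 32-like (1.93), with edgeR adjusted p of 0.325, 0.377 and 0.515. Callose synthase 10 was called only without male 7–12 mm replicate 1 (0.0118 to 0.694 over all alternatives) and Beta-glucosidase 32-like only without female 7–12 mm replicate 2 (0.00145 to 0.786).

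The kinases, transporters and others had 3 calls among 17 genes (17.6%, beside 7.16% of all tested genes), all towards males. The median interaction of the list was 0.59. The UDP-sugar transporter gene, of carriers that bring sugar nucleotides into the Golgi or the endoplasmic reticulum, had 42.9 and 39.2 CPM in male and 15.6 and 19.1 CPM in female buds of 7–12 mm, against 15.9 and 15.5 CPM in male and 20.8 and 20.4 CPM in female buds of 1–6 mm. Its interaction was 1.66 ± 0.20 (edgeR adjusted p = 0.000979). CRCK2, a calmodulin-binding receptor-like kinase, was higher in males at both sizes, with 46.6 and 36.1 CPM in male and 11.2 and 9.19 CPM in female buds of 7–12 mm, against 29.7 and 26.0 CPM in male and 15.3 and 13.3 CPM in female buds of 1–6 mm. Its interaction of 1.05 ± 0.18 (edgeR adjusted p = 0.006) lay just beyond the fold limit and was lost without male 7–12 mm replicate 1 or male 1–6 mm replicate 1, and after thinning to the smallest total (0.98 on the log2 scale), with an adjusted p between 0.00343 and 0.0629 over all alternatives.

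The DUF569 gene, of unknown function, had 46 and 33 counts in male and 5 and 2 counts in female buds of 7–12 mm, against 9 and 3 counts in male and 6 and 2 counts in female buds of 1–6 mm. All groups other than males of 7–12 mm were thinly covered, and the interaction of 3.26 ± 0.89 (edgeR adjusted p = 0.0407) was kept in 7 of 18 alternatives only and lost whichever AU9 library was left out, with an adjusted p between 0.0125 and 0.417. Ammonium transporter 1 member 2 (0.76), Thioredoxin reductase 2-like (0.68) and Spinster homolog 3 (-0.77) passed the p-value under the fold limit, with edgeR adjusted p of 0.0273, 0.0396 and 0.0426.

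None of the 5 light and clock genes was called by edgeR, DESeq2 or either limma fit (2 under an unadjusted p of 0.05), with a median interaction of 0.43. With 7.16% of all tested genes called, this count says nothing particular to the list. HAT4-like (0.69, edgeR adjusted p = 0.0455) and GIGANTEA-like (0.59, edgeR adjusted p = 0.0432) passed the p-value under the fold limit, and GIGANTEA, the clock gene listed next to GIGANTEA-like, had 0.43 (edgeR adjusted p = 0.377). At 7–12 mm 3 of the 5 were called higher and 1 lower in males, beside 9.79% and 8.28% of all tested genes. At 1–6 mm 1 was called lower, beside 7.59%.

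Outside the lists the files and the reference pair no identifier with a name, and 4 gene models are given by their identifiers. The crossing gene with the smallest adjusted p was evm.model.supercontig_62.171 (scaffold scf7180000008013, 23468 to 24698), with 138.5 and 124.8 CPM in male and 16.0 and 21.0 CPM in female buds of 7–12 mm, against 16.6 and 19.9 CPM in male and 52.5 and 56.4 CPM in female buds of 1–6 mm. Each sex was high at the size where the other was low. It rose with size in males by 2.87 and fell in females by 1.58 on the log2 scale, and the interaction was 4.45 ± 0.20 (edgeR adjusted p = 6.18e-06). In hermaphrodites it rose as in males, by 2.16 (edgeR adjusted p = 0.00689), with 11.9 and 26.8 CPM at 7–12 mm against 4.02 and 3.59 CPM at 1–6 mm.

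The largest positive interaction belonged to evm.model.supercontig_51.29 (scaffold scf7180000008788, 347196 to 348821), which had 417 and 264 counts in male buds of 7–12 mm, none in female buds of 7–12 mm or male buds of 1–6 mm, and 0 and 1 in female buds of 1–6 mm. Male buds of 7–12 mm were at least 254-fold higher than female buds of 7–12 mm and at least 291-fold higher than male buds of 1–6 mm (3 counts over the group). The fitted 13.89 depends on empty groups and is no size, and the call (edgeR adjusted p = 0.0306) was kept in 10 of 18 alternatives, with an adjusted p between 0.000174 and 1. It was lost without male 7–12 mm replicate 1 or any library of 1–6 mm, with DESeq2, with all 12 libraries in the fit, and after thinning to the smallest total. Hermaphrodite buds of 7–12 mm had 29 and 50 counts and those of 1–6 mm had 0 and 0.

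The largest negative interactions also rested on empty groups. Model evm.model.supercontig_91.28 had 0 and 0 counts in male and 102 and 24 in female buds of 7–12 mm, against 21 and 9 counts in male and 40 and 32 in female buds of 1–6 mm, and was at least 37.5-fold lower in males at 7–12 mm. Model evm.model.supercontig_96.9 converged, with 3 and 1 counts in male and 3 and 1 in female buds of 7–12 mm, against 67 and 19 counts in male and 0 and 0 in female buds of 1–6 mm, at least 25.1-fold higher in males at 1–6 mm. The calls of these models (edgeR adjusted p = 0.0127 and 0.0165) were kept in 14 and 13 of 18 alternatives, with an adjusted p between 0.000869 and 0.0738 for evm.model.supercontig_91.28 and between 0.00247 and 0.123 for evm.model.supercontig_96.9. Both were lost without either male library of 1–6 mm or female 1–6 mm replicate 1, evm.model.supercontig_91.28 also without male 7–12 mm replicate 1, and evm.model.supercontig_96.9 also without female 7–12 mm replicate 1 and after thinning.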

How the data were processed

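Total RNA of flower buds was made into stranded mRNA libraries. Per the methods and the submitters' processing notes, the authors trimmed reads with Trimmomatic 0.36 after FastQC 0.11.5, aligned them to a PacBio papaya assembly with HISAT2 2.0.5 and SAMtools 1.3.1, and deposited featureCounts 1.5.2 counts of reads on exons per gene model, the models being coding sequences placed on that assembly. Of 27689 models 1990 lie on more than 1 scaffold. Whether counting used strand is not given in the sources used here. Replicate 1 was read single-end and replicate 2 paired-end on another sequencer.

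Counts of the 8 AU9 libraries were fitted with edgeR 4.0.16 (R 4.3.3; TMM scaling, filterByExpr at a minimum count of 10, robust quasi-likelihood test) with 4 group terms and the replicate number as a block, leaving 3 residual degrees of freedom. Calls needed more than 1 on the log2 scale and a false discovery rate (Benjamini-Hochberg) below 0.05. Standard errors are the estimate over the root of its F value. CPM values are counts per 1000000 counts after TMM scaling, from the 12-library fit for hermaphrodites, and replicate values use a prior count of 2. Same-numbered libraries deviated together: the correlation of their deviations ran between 0.760 and 0.837 over 6 pairs of groups, and the biological coefficient of variation was 0.117 with the block and 0.310 without it. An exact permutation test of 2 against 2 libraries cannot go below 0.333.

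Genes were named by rule: all 83 of the study's tables, those called with values and up to 3 uncalled per list, and outside them the largest interactions with the same direction in both replicates (1 positive and 2 negative) with the crossing gene of smallest adjusted p. The members and lists were chosen with earlier results of these data known. The fit was tested on simulated data. Alternatives used DESeq2 1.42.0 and limma 3.58.1. No sequence was used, and 0 identifiers matched the reference table.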

Additional observations from a re-analysis of the deposited data

Results flagged for a closer look

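The named genes whose size change differed between the sexes by the interaction test are listed here once with that test's value on the log2 scale. Towards females lay TPD1 (-2.13), NACK1 (-1.97), KIFC1 (-2.35), TOP2 (-2.55), Cyclin-D3-1 (-2.02), Histone H3 isoform 1 (-1.47), Histone H3 isoform 2 (-1.58), Shugoshin-1-like (-2.81), NCAPD3 (-1.43), ANT on supercontig_129 (-1.64), ANT on supercontig_160 (-2.65), WOX4 (-2.00), CYP83B1 (-4.54), the VAN3-binding protein (-1.46), 1,4-beta-D-xylan synthase (-2.60), EP1-like/COMITIN (-1.22), evm.model.supercontig_96.9 (-8.05) and evm.model.supercontig_91.28 (-7.38). Towards males lay AP3 isoform 1 (1.25), ABA 8-hydroxylase 4 (2.62), Expansin-like A2 (1.25), CRCK2 (1.05), the UDP-sugar transporter (1.66), the DUF569 protein (3.26), evm.model.supercontig_51.29 (13.89) and evm.model.supercontig_62.171 (4.45). Groups of 2 libraries were not tested for a library standing apart from its own group.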

How the results depend on the processing

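Without the replicate block, which pairs same-numbered libraries, 917 genes had an interaction, 913 of them among the 1370, with 247 converging, 25 crossing and 305 changing with size in females; TPD1, NCAPD3, EP1-like/COMITIN, CRCK2 and the DUF569 protein lost their calls. With no fold limit the counts were 2439 for the interaction, 787 converging, 244 crossing, 7661 for the sex difference at 7–12 mm and 6325 at 1–6 mm, and for the size change 3111 in males, 2053 in females and 2084 in hermaphrodites. The interaction was called in 1226 genes by DESeq2 (1127 shared with the 1370), 1606 by limma-voom (1345 shared) and 1523 by limma-trend (1305 shared), in 1259 after thinning to the smallest total (1164 shared), and in 1370 to 1472 under the other filters, scaling and library sets. Leaving out 1 library gave 706 to 2005 genes with an interaction, 514 to 1291 diverging, 168 to 642 converging, 21 to 72 crossing, 3111 to 3534 and 2029 to 2873 for the sex difference at 7–12 and 1–6 mm, and 870 to 1495, 121 to 1162 and 264 to 932 for the size change in males, females and hermaphrodites; a fit without a library has fewer degrees of freedom. None of the 26 called genes followed one by one turned its sign, and 16 of them kept their calls under all 18 alternatives. Among uncalled genes with female counts near 0, TDF1 (0.31) turned to -0.0437 with DESeq2 and -0.29 with limma-trend, and without 1 library it lay between -4.80 and 4.46, CpMS1 between -1.70 and 3.20 and DYT between -0.82 and 0.068. Depth limits the genes with few counts: 45 of the 1370 had a group with at most 3 counts and 13 a group with none.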
